A study of Mus musculus with 12 samples.

Results

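Type I interferon response genes are the genes whose transcription rises when a cell senses type I interferon, and 41 of them, listed by symbol, were followed in the livers of mice of 4 genotypes. The list is a catalog of known interferon-induced genes. Each symbol was matched to its Ensembl identifier, and all 41 were found among the 40551 genes counted, and all 41 passed the filter on low counts that left 15070 genes for testing. The data are total RNA-seq counts of 12 livers of 2-month-old mice, 3 per genotype and 1 library per liver, from a study of DNA fragments, sensing by cGAS and STING, and liver cancer. The wild-type (WT) mice carried neither deletion. In Mcl1Δhep mice (labelled Mcl1 KO), Cre recombinase under the albumin promoter deletes floxed Mcl1, an antiapoptotic BCL2 family gene, in hepatocytes only, so that other liver cells keep it. Sting1-/- mice lack Sting1, the adaptor for cytosolic DNA, in every cell, and Mcl1Δhep Sting1-/- mice carry both changes. Mice of both sexes were used, and neither the labels nor the methods tie replicate numbers to litters or days.

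Type I interferons are secreted by cells that detect foreign or misplaced nucleic acid. They bind a receptor made of IFNAR1 and IFNAR2, whose kinases JAK1 and TYK2 activate a complex with STAT2 and IRF9 that binds the interferon-stimulated response element (ISRE) in promoters. The induced genes encode sensors of viral RNA, enzymes and binding proteins that block viral RNA, the ubiquitin-like modifier ISG15 with its conjugation enzymes, and IRF7, which feeds back on interferon production. In the liver, hepatocytes, Kupffer cells and endothelial cells can all respond.

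Promoter sequences of the members were examined because the ISRE is the element through which the pathway acts. RefSeq promoters (GRCm38.p6, 250 bases before to 50 after the transcription start) were at hand for 31 of the 41 members. The ISRE letters, TTTC followed after any 2 bases by TTTC again and read on both strands, were found in 13 of the 31 (41.9%) and in 3.99% of the 27025 genes with such a promoter. The letters of a gamma-activated site (TTC and GAA separated by any 3 bases, a pattern that reads alike on both strands) were found in 5 of the 31 (16.1%) and in 9.55% of all genes. None of the 22 ISRE matches in members overlapped a gamma-activated match, and in Isg15, Oas1a and Oas1g the ISRE matches overlapped each other. No entry was at hand for Mx1, Mx2, Tor3a, Oas2, Rigi, Rtp4, Parp9, Parp14, Usp18 and Dhx58.

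The 120 bases before the start are shown, on the strand of the gene and with ISRE letters in capitals, for Isg15, Ifit1, Rsad2, Oas1a and Ddx60, which are described below and hold a match there, and for Irf7, which holds none. The windows are chr4:156200819-156200938 (minus strand) for Isg15, chr19:34640769-34640888 (plus) for Ifit1, chr12:26456453-26456572 (minus) for Rsad2, chr5:120907526-120907645 (minus) for Oas1a, chr8:61927967-61928086 (plus) for Ddx60 and chr7:141266425-141266544 (minus) for Irf7.
Isg15: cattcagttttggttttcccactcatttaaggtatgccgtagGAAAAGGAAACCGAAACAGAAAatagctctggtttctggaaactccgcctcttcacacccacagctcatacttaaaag
Ifit1: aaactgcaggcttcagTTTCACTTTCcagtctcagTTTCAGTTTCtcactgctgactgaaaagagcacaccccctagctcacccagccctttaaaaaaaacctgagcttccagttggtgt
Rsad2: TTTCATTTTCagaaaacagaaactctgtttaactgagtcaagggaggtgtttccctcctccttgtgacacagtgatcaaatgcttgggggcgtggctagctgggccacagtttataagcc
Oas1a: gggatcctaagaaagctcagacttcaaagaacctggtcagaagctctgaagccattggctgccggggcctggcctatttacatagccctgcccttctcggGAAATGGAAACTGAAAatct
Ddx60: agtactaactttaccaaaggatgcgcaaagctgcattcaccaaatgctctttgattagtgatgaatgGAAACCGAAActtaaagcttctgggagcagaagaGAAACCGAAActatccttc
Irf7: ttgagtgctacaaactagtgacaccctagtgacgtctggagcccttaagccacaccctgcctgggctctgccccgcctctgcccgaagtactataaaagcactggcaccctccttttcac
In Isg15, 3 overlapping matches began 78, 72 and 66 bases before the start. Ifit1 held 2 separate matches that began 104 and 85 bases before it, and Ddx60 held 2 that began 53 and 19 bases before it. In Rsad2, the single match began 120 bases before the start. A match is a description of letters, and the absence of one in Irf7 says only that these letters do not occur in its window.

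The libraries held 28826367 to 45266387 counts on genes. Mcl1 itself was lower in every Mcl1Δhep (24.6 to 33.9 CPM) and Mcl1Δhep Sting1-/- library (18.1 to 25.96) than in every WT (90.2 to 104) and Sting1-/- library (76.9 to 90.0). CPM is the usual read count of a gene scaled to the depth of its library, here with TMM factors. Sting1 did not mark its labels in the same way. It had 2.53, 2.43 and 2.11 CPM in the WT livers and 1.16, 1.72 and 2.70 in the livers labelled Sting1-/- (log2 fold change −0.33 with a standard error of 0.29, edgeR adjusted p = 0.998), and the groups overlapped. In Mcl1Δhep livers it had 4.59, 5.99 and 3.61 CPM and in Mcl1Δhep Sting1-/- livers 1.90, 2.53 and 2.33, which is lower without overlap (−1.05, edgeR adjusted p = 0.134, DESeq2 adjusted p = 0.0207). The study checked the knockout by Western blot and also stained Sting1-/- liver for STING. It reports that Sting1-/- splenocytes could not phosphorylate IRF3 after a STING agonist. The sources used here do not say which stretch of the gene is missing, so RNA counts may not show it. Y-linked genes were expressed in WT livers 2 and 3 and in Mcl1Δhep Sting1-/- liver 1, and in no other library. Small structured RNAs took 0.192, 0.208 and 0.421% of counts in WT, 0.314, 2.78 and 1.55% in Mcl1Δhep, and 0.491 to 0.981% in the other 6 libraries. Skeletal muscle markers summed to 1136 CPM in Mcl1Δhep liver 3 and to at most 6.28 CPM elsewhere.

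The members were expressed in every liver, at levels that differed widely between genes. On a scale that corrects for length (TPM, counts per exon length scaled to a common total, mean of the 12 livers), Irf7 was highest with 59.1 TPM, followed by Lgals3bp, a secreted glycoprotein, with 52.4 and Parp9 with 46.3. Oas2 was lowest with 1.09 TPM, below Mx1 with 1.28. The least counted member in any library had 17 counts.

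The strongest pattern among the members was a single WT liver. WT replicate 3 was the highest of the 12 libraries for 31 of 41 members, against 7.75% of all tested genes, and it was above both other WT livers for 39 of 41, against 32.7%. The mean log2 CPM over the 41 members was 3.90, 3.49 and 4.68 in WT livers 1, 2 and 3, against 3.91 to 4.07 in Mcl1Δhep, 3.69 to 4.06 in Mcl1Δhep Sting1-/- and 3.85 to 3.86 in Sting1-/- livers. WT replicate 2 lay at the other end, as the lowest of the 12 libraries for 17 members, against 11.3% of all tested genes. Both of these livers expressed Y-linked genes. The study names no difference between them beyond the replicate number.

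**Figure D1:**
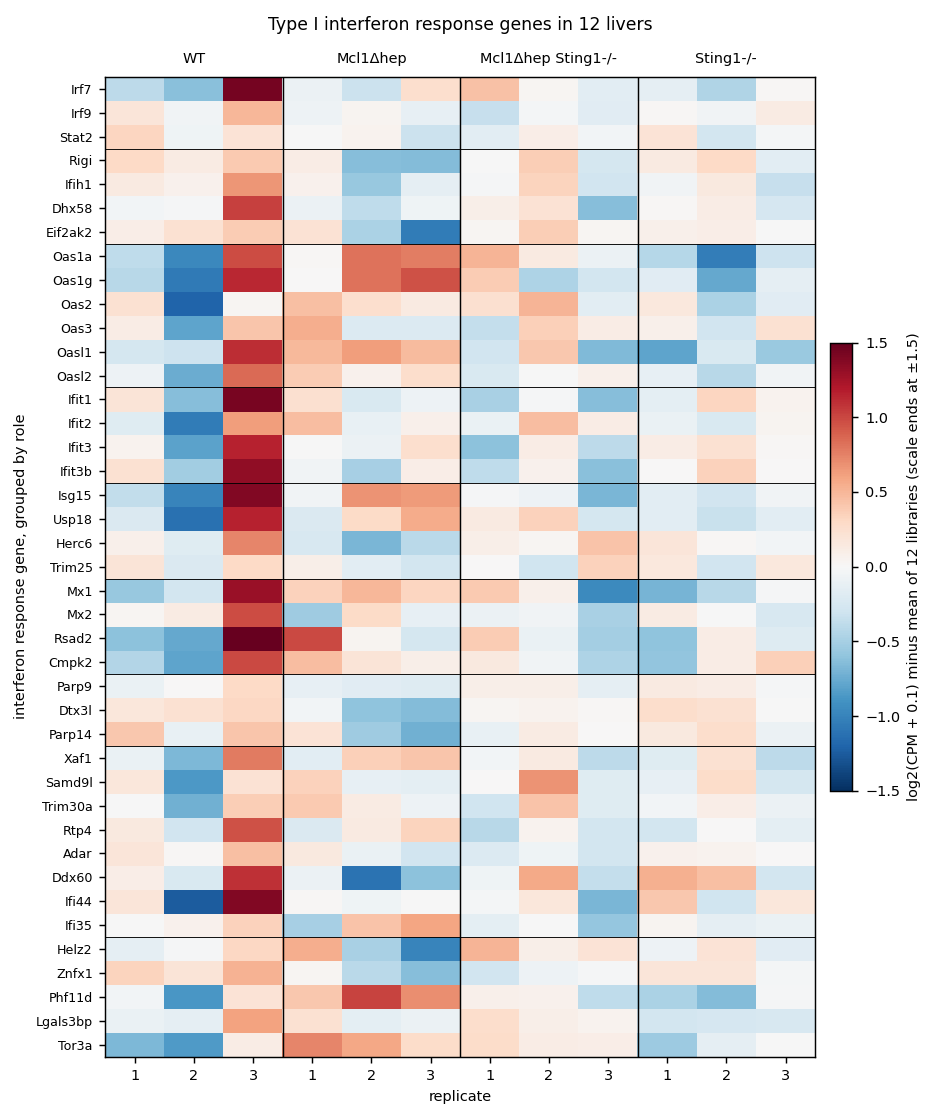
Level of the 41 interferon response genes (rows, grouped by role and separated by lines) in the 12 livers (columns, by genotype and replicate), as log2(CPM + 0.1) minus the mean of the 12 libraries of each gene. The column of WT replicate 3 is above the row mean for every gene, and it is the highest of the 12 libraries for 31 of 41.

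The key genes of the response show the size of this spread. Irf7, the interferon-induced transcription factor (ENSMUSG00000025498, GRCm39 chromosome 7, 140842619 to 140846398), had 43.9, 37.3 and 156 CPM in the 3 WT livers, 54.4, 46.4 and 69.1 in Mcl1Δhep, 78.1, 59.1 and 51.7 in Mcl1Δhep Sting1-/-, and 52.7, 42.4 and 58.6 in Sting1-/- livers. WT liver 3 stood above all others, with a Mcl1Δhep Sting1-/- liver second at 78.1 CPM, while WT liver 2 was the lowest of the 12. Isg15, the ubiquitin-like modifier (ENSMUSG00000035692, chromosome 4, 156283883 to 156285303), had 6.36, 4.09 and 21.7 CPM in WT, 7.90, 13.2 and 12.9 in Mcl1Δhep, 8.15, 7.77 and 5.06 in Mcl1Δhep Sting1-/-, and 7.36, 6.71 and 7.91 in Sting1-/- livers. The Mcl1Δhep livers thus lay between the low and the high WT livers. Usp18, the protease that removes ISG15 and damps the receptor (ENSMUSG00000030107, chromosome 6, 121222848 to 121247877), had 18.7, 9.99 and 48.8 CPM in WT, 18.8, 26.7 and 32.2 in Mcl1Δhep, 23.9, 27.7 and 18.2 in Mcl1Δhep Sting1-/-, and 19.5, 17.2 and 19.5 in Sting1-/- livers. Again the lowest and the highest of the 12 libraries were both WT.

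Ifit1, which binds viral RNA lacking host-type caps (ENSMUSG00000034459, chromosome 19, 34618271 to 34632174), had 16.5, 9.22 and 38.8 CPM in WT, 17.0, 12.3 and 13.6 in Mcl1Δhep, 10.3, 14.2 and 9.22 in Mcl1Δhep Sting1-/-, and 12.9, 18.0 and 15.0 in Sting1-/- livers. Rsad2, which encodes viperin (ENSMUSG00000020641, chromosome 12, 26492745 to 26506451), had 10.7, 9.66 and 48.6 CPM in WT, 32.8, 17.0 and 13.7 in Mcl1Δhep, 21.5, 15.4 and 11.5 in Mcl1Δhep Sting1-/-, and 10.8, 17.9 and 14.5 in Sting1-/- livers. For Rsad2 a Mcl1Δhep liver, replicate 1, was the second highest of the 12. Stat2, a subunit of the ISRE-binding complex (ENSMUSG00000040033, chromosome 10, 128106352 to 128128735), behaved differently, with 42.0, 32.1 and 38.6 CPM in WT, 33.5, 34.8 and 26.8 in Mcl1Δhep, 30.0, 35.9 and 32.7 in Mcl1Δhep Sting1-/-, and 38.8, 27.8 and 32.8 in Sting1-/- livers. Its 4 groups overlapped, and WT liver 3 was not its highest.

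**Figure D2:**
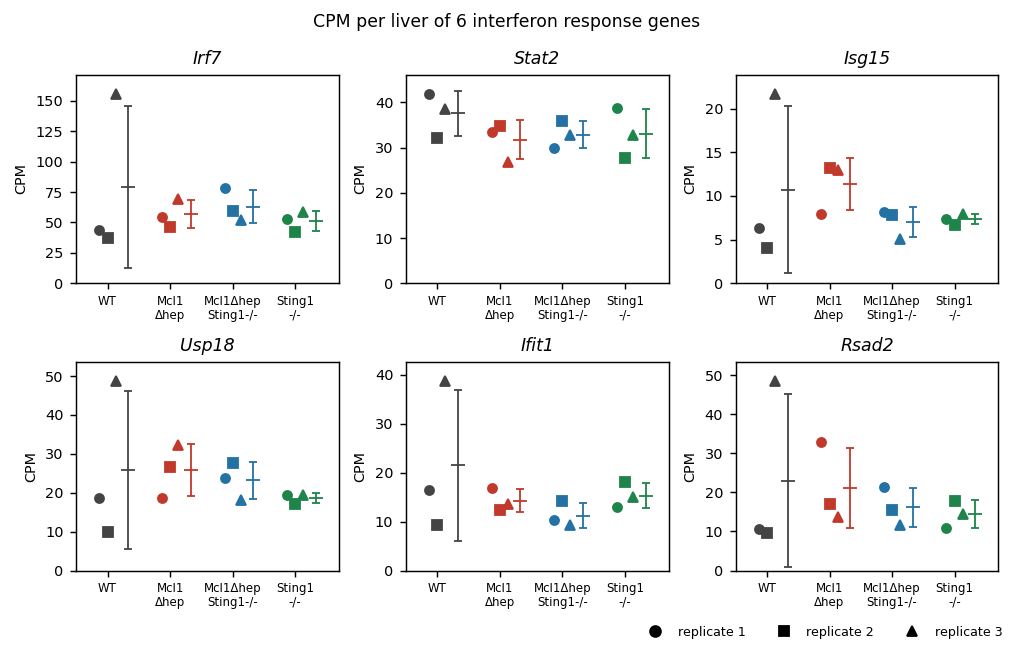
CPM (vertical axes, from 0) of 6 interferon response genes in each liver by genotype, with replicates as circles, squares and triangles and the mean ± SD of 3 livers beside them. WT replicate 3 stands apart for Irf7 (156 CPM), Isg15 (21.7), Usp18 (48.8), Ifit1 (38.8) and Rsad2 (48.6) but not for Stat2 (38.6).

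The excess of WT liver 3 was unequal among roles. On the log2 CPM scale it exceeded the mean of WT livers 1 and 2 by a median of 0.88 over the members, against 0.01 over the 12556 tested genes with at least 1 CPM. The median excess was 1.69 for the Mx GTPases, viperin and its neighbor Cmpk2, 1.51 for the IFIT family, 1.33 for the OAS family of RNA-activated enzymes, and 1.31 for ISG15 and its enzymes. It was 0.39 for the RNA sensors (Rigi, Ifih1, Dhx58, Eif2ak2) and 0.27 for the ADP-ribosylation genes (Parp9, Dtx3l, Parp14). The excess was over 1 for 19 of 41 members and for 2.01% of the genes with at least 1 CPM. By size of the excess, 6 members were among the first 100 of the 12556 genes and 26 among the first 500. Members with ISRE letters had a median excess of 1.49 (n = 13) and those without 0.70 (n = 18), with ranges of 0.07 to 2.25 and 0.11 to 1.95 that overlapped.

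The 10 genes with the largest excess held no member. They were Mug2, a gene of the alpha-macroglobulin family (5.80, 6.61 and 534 CPM in the WT livers), the male-biased cytochrome P450 genes Cyp4a12a and Cyp4a12b, the Y-linked Ddx3y, Eif2s3y, Kdm5d and Uty, and 2610507I01Rik, Nat8f5 and Gm4956, and WT liver 1 had 0 CPM of the Y-linked genes and of both cytochrome P450 genes. A second view, chosen after the values were seen, compared WT liver 3 with the higher of the other WT livers. It was at least 2-fold above both for 14 of 41 members (34.1%) and for 1.04% of the genes with at least 1 CPM. Those members were Rsad2, Irf7, Isg15, Mx1, Oas1g, Cmpk2, Usp18, Oasl1, Oas1a, Ifit1, Ifi44, Ifit3b, Ifit3 and Dhx58. Of the first 40 genes in this view 3 were members, and many others were small structured RNAs such as Snora73b, Snora68 and Rny3, a class whose share of counts was also highest in WT liver 3 among the WT livers.

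The spread among WT livers exceeded that of the other genotypes for these genes. The range of the 3 livers had a median over the members of 1.11 log2 units in WT, against 0.39 over all tested genes. It was 0.57 in Mcl1Δhep, 0.60 in Mcl1Δhep Sting1-/- and 0.38 in Sting1-/- livers, against 0.62, 0.41 and 0.36 over all tested genes. The range exceeded 1 for 24 members in WT, 5 in Mcl1Δhep, 2 in Mcl1Δhep Sting1-/- and none in Sting1-/- livers, and the widest was that of Ifi44 in WT at 2.65. Of all tested genes, 16.0, 21.9, 15.2 and 9.79% had a range over 1 in these groups, in the same order.

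Between Mcl1Δhep and WT livers, few members changed, and they did so in both directions. This comparison asks whether deletion of Mcl1 in hepatocytes alters the interferon response genes. The edgeR quasi-likelihood test with Benjamini-Hochberg adjustment over all genes called 5 of 41 members, 2 higher and 3 lower in Mcl1Δhep livers, at an adjusted p under 0.05. Of all tested genes 20.2% were called, 10.8% higher and 9.43% lower. Whether 5 of 41 differs from that background share was not tested. At an unadjusted p under 0.05 the members were 9, against 36.9% of all genes. DESeq2 called the same 5 members and also Rigi and Ddx60, both lower. Over all 15070 tested genes it called 3884. The median log2 fold change over the members was −0.22, with 17 positive and 24 negative values, and that of all tested genes was −0.00491.

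By role, no transcription factor was called, and Irf7 (−0.47), Irf9 (−0.27) and Stat2 (−0.24) had negative log2 fold changes. All 4 RNA sensors had negative values from −0.61 for Rigi to −0.49 for Ifih1, none past the threshold. All 6 OAS genes had positive values from 0.09 for Oasl2 to 0.50 for Oas2, none past it. In the IFIT family, the values ran from −0.67 for Ifit3b to 0.22 for Ifit2. Among ISG15 and its enzymes, Herc6, the mouse ligase for ISG15, was called lower, while Isg15 (0.09), Usp18 (0.01) and Trim25 (−0.21) were not called. Mx1 (0.01), Mx2 (−0.53), Rsad2 (−0.11) and Cmpk2 (0.13) were not called. Of the ADP-ribosylation genes Dtx3l was called lower, and Parp9 (−0.24) and Parp14 (−0.54) were not called. None of the 8 other antiviral genes was called, although Ddx60, an RNA helicase, had the most negative value of all members at −0.97 (standard error 0.38, edgeR adjusted p = 0.0905).

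Tor3a, an ATPase of the endoplasmic reticulum (ENSMUSG00000060519, chromosome 1, 156481183 to 156501979), had 4.51, 3.97 and 7.86 CPM in WT, 12.1, 10.9 and 8.80 in Mcl1Δhep, 8.75, 7.82 and 7.74 in Mcl1Δhep Sting1-/-, and 4.95, 6.61 and 7.24 in Sting1-/- livers. It rose with a log2 fold change of 0.96 (standard error 0.24, edgeR adjusted p = 0.0194), and every Mcl1Δhep liver lay above every WT liver. Its exons share 859 bases with those of Abl2 on the opposite strand, and the use of strand in counting is not given in the sources used here. Phf11d, a zinc finger gene (ENSMUSG00000068245, chromosome 14, 59584654 to 59602945), had 3.24, 1.78 and 3.90 CPM in WT, 4.47, 6.85 and 5.51 in Mcl1Δhep, 3.54, 3.51 and 2.54 in Mcl1Δhep Sting1-/-, and 2.39, 2.10 and 3.30 in Sting1-/- livers. It rose by 0.91 (standard error 0.29, edgeR adjusted p = 0.0474) without overlap of the groups.

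Herc6 (ENSMUSG00000029798, chromosome 6, 57557932 to 57642597) had 23.2, 19.4 and 36.5 CPM in WT, 18.7, 13.7 and 16.6 in Mcl1Δhep, 23.4, 22.5 and 29.5 in Mcl1Δhep Sting1-/-, and 25.0, 22.3 and 21.4 in Sting1-/- livers. It fell by 0.68 (log2, with a standard error of 0.22, edgeR adjusted p = 0.0455), and the highest Mcl1Δhep liver was just below the lowest WT liver. Dtx3l, the ubiquitin ligase partner of Parp9 (ENSMUSG00000049502, chromosome 16, 35746881 to 35759521), had 76.4, 79.3 and 84.2 CPM in WT, 65.9, 44.6 and 43.1 in Mcl1Δhep, 69.1, 70.6 and 68.6 in Mcl1Δhep Sting1-/-, and 81.7, 79.8 and 67.4 in Sting1-/- livers. It fell by 0.64 (standard error 0.16, edgeR adjusted p = 0.0190), with Mcl1Δhep livers 2 and 3 well below liver 1. Znfx1, a helicase that senses double-stranded RNA (ENSMUSG00000039501, chromosome 2, 166877710 to 166904968), had 94.6, 85.8 and 108 CPM in WT, 76.4, 56.4 and 48.2 in Mcl1Δhep, 61.5, 71.2 and 73.9 in Mcl1Δhep Sting1-/-, and 85.2, 85.4 and 73.7 in Sting1-/- livers. It fell by 0.66 (standard error 0.17, edgeR adjusted p = 0.0202), again with Mcl1Δhep livers 2 and 3 lowest.

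**Figure D3:**
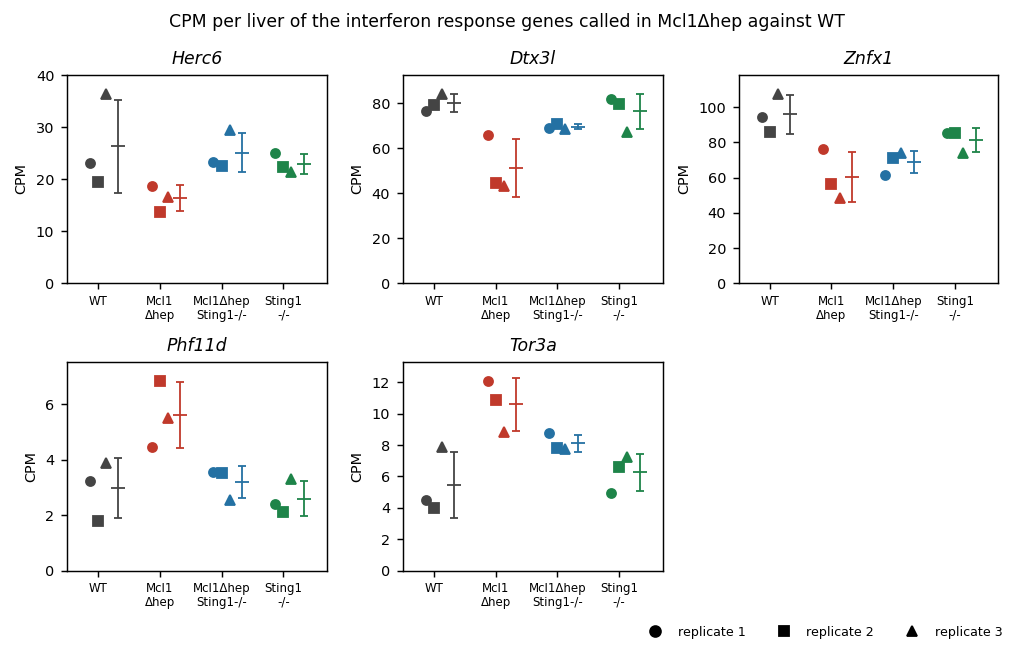
CPM (vertical axes, from 0) per liver of the 5 interferon response genes called between Mcl1Δhep and WT livers, with replicates as circles, squares and triangles and the mean ± SD of 3 livers beside them. Herc6, Dtx3l and Znfx1 are lower in all 3 Mcl1Δhep livers than in any WT liver, and Phf11d and Tor3a are higher in all 3.

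In all, 2 members were higher and 7 lower in Mcl1Δhep livers without overlap of the groups, against 15.9% and 17.5% of all tested genes. The 7 were Rigi, Ifih1, Dhx58, Herc6, Parp9, Dtx3l and Znfx1. Leaving out 1 library changed which members were called. Without Mcl1Δhep replicate 1, 11 members were called, with Phf11d and Tor3a higher and Rigi, Eif2ak2, Herc6, Dtx3l, Parp14, Adar, Ddx60, Helz2 and Znfx1 lower, and the background was 16.3% higher and 17.8% lower. Without Mcl1Δhep replicate 2 none was called, without replicate 3 only Tor3a, without WT replicate 1 only Dtx3l and Znfx1, and without WT replicate 2 only Herc6 and Znfx1. For these fits the share of all genes called is not given here. Herc6 and Phf11d lay so near the threshold that Herc6 lost its call with any 1 library of the other 2 genotypes left out, and Phf11d with any but Mcl1Δhep Sting1-/- replicate 3.

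Fold changes over all genes fell with transcript length, and those of the members did so less evenly. Over 13672 protein-coding genes, the longest minus the shortest of 5 equal classes of canonical transcript length had a median log2 deviation of −0.72 and −0.76 in Mcl1Δhep livers 2 and 3, of 0.13 in Mcl1Δhep liver 1, and of −0.22 to 0.06 in the other 9 libraries. The members called lower have long transcripts, with 5309 bases for Dtx3l, 5800 for Herc6 and 7254 for Znfx1, and Phf11d is short with 1216 bases, whereas Tor3a is of middle length with 3285. The 9 members of the longest class had a median log2 fold change of −0.54, against −0.23 for all 2734 genes of that class. The 5 of the shortest class had 0.09, against 0.21. The classes between them, from shorter to longer, had −0.21, 0.09 and −0.06 (n = 12, 9 and 6). All genes of these classes had 0.06, −0.01 and −0.10. When each library was centered within 20 classes of length, Dtx3l (−0.51, edgeR adjusted p = 0.0120), Znfx1 (−0.43, edgeR adjusted p = 0.0240) and Tor3a (0.97, edgeR adjusted p = 0.0188) were still called and Herc6 and Phf11d were not. The share of small structured RNAs was also highest in Mcl1Δhep livers 2 and 3, and with it as a covariate no member was called. With Y-linked expression as a covariate, Znfx1 and Tor3a were called. The share of all genes called in the centered and covariate fits is not given here, so these counts have no background beside them. The part of these library differences in the fold changes was not tested.

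**Figure D4:**
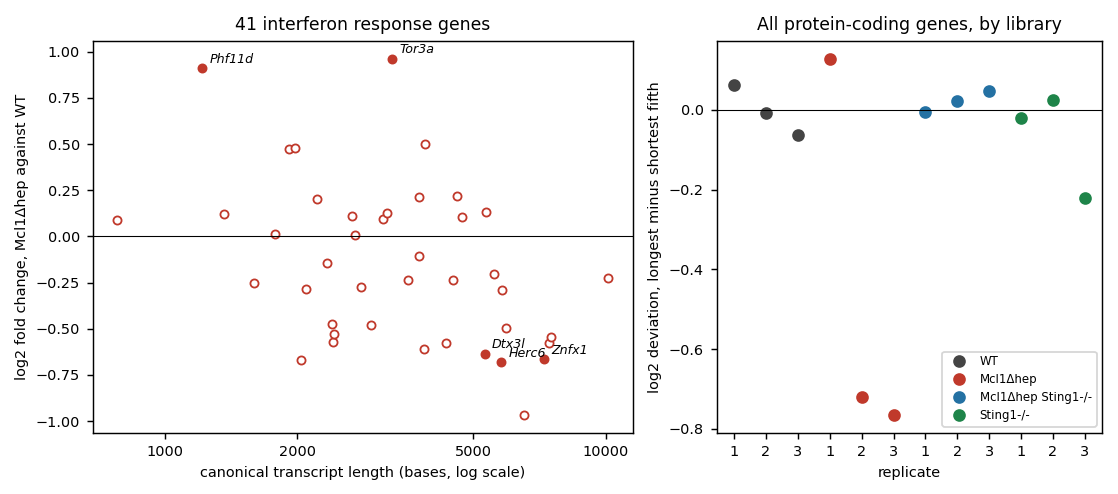
Left, log2 fold change between Mcl1Δhep and WT livers of the 41 interferon response genes against canonical transcript length in bases (log axis), filled where the adjusted p was under 0.05. Right, median log2 deviation of the longest minus the shortest of 5 length classes of 13672 protein-coding genes in each library, which is −0.72 and −0.76 in Mcl1Δhep livers 2 and 3 and between −0.22 and 0.13 in the other 10 libraries.

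The direction of the comparison depended on single livers for many uncalled members. The sign of the fold change turned for 7 members without WT replicate 3, 11 without WT replicate 2, 6 without WT replicate 1, and 2, 4 and 6 without Mcl1Δhep replicates 1, 2 and 3. It also turned for 11 with the share of small structured RNA as a covariate and for 6 with Y-linked expression as one. No called member turned. WT replicate 3 was above the mean of WT livers 1 and 2 for all 41 members. Leaving it out therefore raises the fold changes of the members against WT by construction, and the rise is no independent result. Without WT replicate 3, the median log2 fold change between Mcl1Δhep and WT livers became 0.23, with 24 members positive, and 7 members with a negative value had a positive one, namely Irf7, Ifit1, Ifit3, Rsad2, Rtp4, Ifi44 and Lgals3bp. The 4 members then called were all higher, Oas1a (1.22, edgeR adjusted p = 0.0403), Isg15 (1.11, edgeR adjusted p = 0.0390), Phf11d (1.14, edgeR adjusted p = 0.0472) and Tor3a (1.31, edgeR adjusted p = 0.00731), against a background of 6.33% higher and 3.99% lower. Oas1a, which makes the activator of RNase L, had 4.96, 3.26 and 12.8 CPM in WT, 6.56, 11.4 and 11.04 in Mcl1Δhep, 9.25, 7.09 and 6.07 in Mcl1Δhep Sting1-/-, and 4.77, 3.10 and 5.21 in Sting1-/- livers. Each Mcl1Δhep liver was thus above WT livers 1 and 2 and below WT liver 3. The RNA sensors (median −0.40) and ADP-ribosylation genes (median −0.46) kept negative medians without that liver. The OAS genes reached a median of 0.72, and Mx1, Mx2, Rsad2 and Cmpk2 one of 0.85. The value moved by more than 0.50 for 15 members. Irf7, for example, went from −0.47 to 0.48, neither past the threshold.

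**Figure D5:**
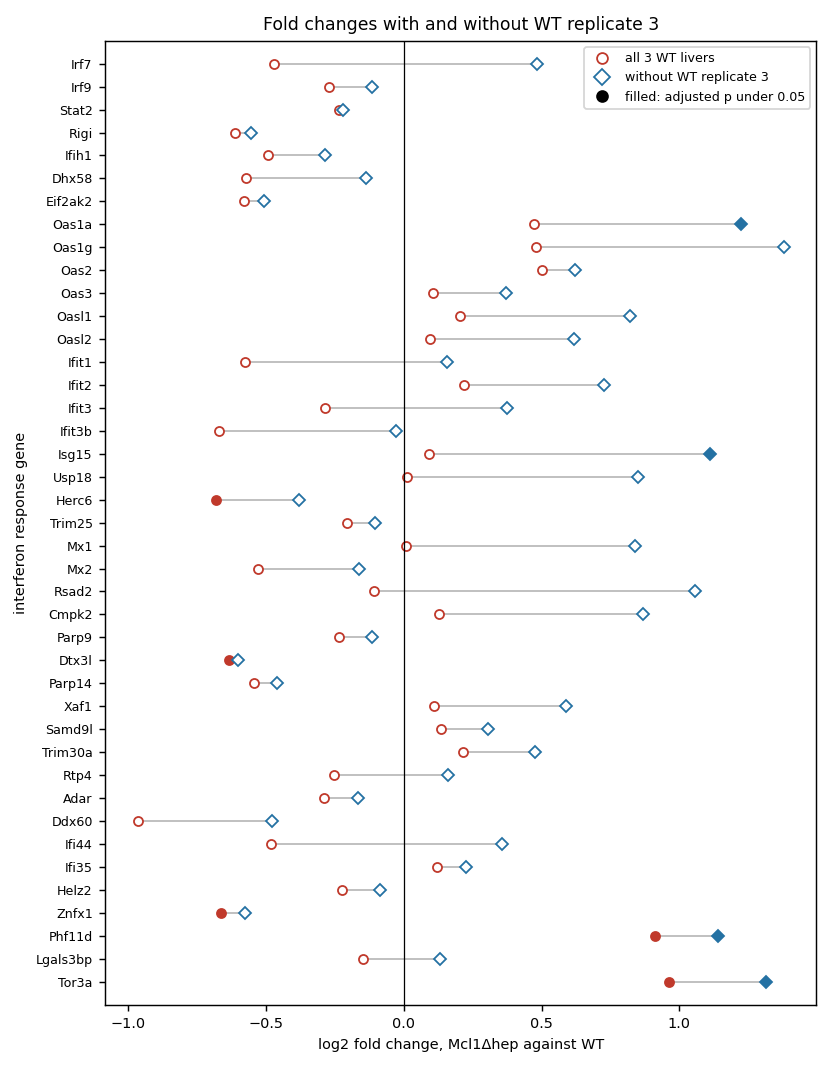
Log2 fold change between Mcl1Δhep and WT livers for each of the 41 interferon response genes, with all 3 WT livers (red circles) and without WT replicate 3 (blue diamonds), filled where the adjusted p was under 0.05. All 41 values lie further right without that liver, and the median goes from −0.22 to 0.23. This shift follows from leaving out a WT liver that was high for these genes.

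Mcl1Δhep Sting1-/- livers were then compared with Mcl1Δhep livers, which asks whether loss of Sting1 alters these genes when Mcl1 is deleted. The edgeR test called 0 of 41 members and 0.0% of all genes, and DESeq2 called 0 members and 671 genes. At an unadjusted p under 0.05 the members were 3, against 20.6% of all genes, with a median log2 fold change of −0.12 over the members. Those 3 were Herc6 (0.61, standard error 0.22, edgeR adjusted p = 0.166) and Dtx3l (0.43, standard error 0.16, edgeR adjusted p = 0.177), with higher values in Mcl1Δhep Sting1-/- livers, and Phf11d (−0.81, standard error 0.29, edgeR adjusted p = 0.173), with lower values. Without overlap of the groups, 2 members were higher (Herc6 and Dtx3l, background 9.24%) and 3 lower (Oasl1, Phf11d and Tor3a, background 8.91%). All 6 OAS genes had negative values and all 4 RNA sensors positive ones. The Mcl1Δhep livers are shared with the comparison above, so signs opposite to those against WT are not independent of it.

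The number of calls in this comparison depended on Mcl1Δhep replicate 1. Without it, edgeR called 6 members, with Rigi, Eif2ak2, Dtx3l, Parp14 and Helz2 higher and Ifi35 lower in Mcl1Δhep Sting1-/- livers, against a background of 11.2% higher and 9.08% lower. Helz2, a helicase and the longest member with 10130 bases, had 139.7, 68.3 and 48.1 CPM in the Mcl1Δhep livers and 136, 101 and 110.2 in the Mcl1Δhep Sting1-/- livers. Eif2ak2, the kinase PKR, had 26.6, 16.4 and 11.01 CPM and 23.4, 29.6 and 23.4. Mcl1Δhep liver 1 lay above all Mcl1Δhep Sting1-/- livers for Helz2 and within their range for Eif2ak2. In both genes Mcl1Δhep livers 2 and 3, those with low values for long transcripts, lay below that range. Ifi35, at 1362 bases, had 18.0, 34.5 and 38.7 CPM and 23.1, 25.4 and 17.1, with livers 2 and 3 above.

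Between livers labelled Sting1-/- and WT livers, edgeR called 0 members and 0.0% of all genes, and DESeq2 called 0 members and 49 genes. At an unadjusted p under 0.05 there were 2 members, Oasl1 (−0.85, standard error 0.36, edgeR adjusted p = 0.866) and Lgals3bp (−0.42, standard error 0.19, edgeR adjusted p = 0.909), against 5.45% of all genes. The median over the members was −0.20, with 36 of 41 values negative, and 0.11 with 27 positive without WT replicate 3. WT liver 3 enters this comparison and the one of Mcl1Δhep livers alike. The 3 livers labelled Sting1-/- were close to each other, with Isg15 at 7.33 ± 0.601 CPM and Usp18 at 18.7 ± 1.30 (mean ± SD, n = 3), against 10.7 ± 9.59 and 25.8 ± 20.4 in WT.

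Mcl1Δhep Sting1-/- against Sting1-/- livers, the comparison of Mcl1 deletion that does not involve the WT livers, gave 0 called members by edgeR and by DESeq2, against 0.803% of all genes by edgeR and 474 genes by DESeq2. No member had an unadjusted p under 0.05, which 11.3% of all genes had, and the median was 0.02 with 22 positive values. The lowest p belonged to Lgals3bp (0.39, standard error 0.19, edgeR adjusted p = 0.474), which had 90.3, 80.3 and 78.0 CPM in Mcl1Δhep Sting1-/- and 62.3, 63.3 and 63.6 in Sting1-/- livers, without overlap. Tor3a had a log2 fold change of 0.37 here (standard error 0.24, edgeR adjusted p = 0.654), beside its 0.96 against WT.

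The difference between both Mcl1 comparisons was tested as an interaction. It was past the threshold for 0 members by edgeR and by DESeq2, and for 0.0% of all genes by edgeR and 172 genes by DESeq2. At an unadjusted p under 0.05 by edgeR there were 2 members (Herc6 and Dtx3l), against 14.4% of all genes. The median interaction was 0.22 over the members and −0.25 without WT replicate 3. Without Mcl1Δhep replicate 1, edgeR called Eif2ak2, Dtx3l and Helz2, against 10.2% of all genes.

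The rest of the pathway was followed in listed genes. Of 21 interferon ligand genes, 18 had 0 counts in all 12 libraries, Ifnb1 among them, which allows up to 3 counts or 0.0663 to 0.104 CPM per library, counting error only. Ifna1 had 1 count, Ifnz 3 and Ifng 26 over all libraries, and no ligand could be tested. Of 8 tested receptors and kinases, Ifngr1 (0.71, edgeR adjusted p = 0.0167) and Ifngr2 (0.85, edgeR adjusted p = 0.00468), the interferon gamma receptor, and Il10rb (0.70, edgeR adjusted p = 0.00762), shared by interferon lambda and interleukin receptors, were higher in Mcl1Δhep than in WT livers. Ifnar2, a chain of the type I receptor, was lower (−0.50, edgeR adjusted p = 0.0277), and Ifnar1 (−0.21), Jak1 (−0.15) and Tyk2 (−0.13) were not called. Of 11 signal factors and inhibitors, Irf8 rose (1.15, edgeR adjusted p = 0.00116) and Irf2 (−0.57, edgeR adjusted p = 0.0324) and Irf3 (−0.34, edgeR adjusted p = 0.0431) fell. Of 12 sensing genes, Sting1 rose (0.99, edgeR adjusted p = 0.0324) and Mavs, the adaptor of the RNA sensors, fell (−0.77, edgeR adjusted p = 0.0155). Cgas, the DNA sensor, had a value of 1.19 that missed the threshold (standard error 0.40, edgeR adjusted p = 0.0562) and was past it without WT replicate 3 (1.66, edgeR adjusted p = 0.0334), by DESeq2 and after centering by length. The 3 WT livers had 0.237, 0.207 and 0.561 CPM of Cgas, so the left-out liver was its highest WT liver. Without WT replicate 3, Sting1 (edgeR adjusted p = 0.1005), Irf2 (edgeR adjusted p = 0.126) and Irf3 (edgeR adjusted p = 0.121) were not called, and Irf3 was called in 4 of the 12 fits that left out 1 library. In each of the other comparisons edgeR called none of the 31 tested genes, with 1 to 5 at an unadjusted p under 0.05.

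Cell type markers give the composition beside these values. Hepatocyte markers were abundant in every library, with the 6 genes summing to 86292 to 147058 CPM. In Mcl1Δhep against WT livers, edgeR called 5 of 6 markers of monocytes and recruited macrophages higher (summed CPM 200 to 417 against 89.6 to 118), 4 of 4 tested neutrophil markers (9.39 to 21.9 against 2.85 to 4.59) and 3 of 6 Kupffer cell markers (561 to 654 against 318 to 512). It also called 3 of 5 stellate cell markers, 2 of 5 of conventional dendritic cells, 2 of 6 tested of T and NK cells and 1 of 5 of plasmacytoid dendritic cells higher, and none of B cells, endothelium, bile duct or hepatocytes. For every plasmacytoid marker the 2 groups overlapped. The 4 plasmacytoid markers other than Bst2 summed to 3.64, 4.59 and 70.6 CPM in Mcl1Δhep livers 1, 2 and 3. Liver 3 is also the one with the high skeletal muscle markers. No marker was called lower. Without WT replicate 3, 4 of 6 monocyte, 3 of 6 Kupffer cell and 2 of 4 neutrophil markers were called. Of the others, 1 of 5 stellate, 1 of 5 conventional dendritic, 1 of 6 T and NK and 0 of 5 plasmacytoid were called. In WT liver 3, no marker of an immune cell list had its highest library. It was above both other WT livers for 5 of 6 Kupffer cell markers (summed CPM 375, 318 and 512), 4 of 5 endothelial, 3 of 6 monocyte and 3 of 5 neutrophil markers. The same held for 2 of 6 hepatocyte, 2 of 7 T and NK, 1 of 5 conventional dendritic and 1 of 5 B and plasma cell markers. No stellate or bile duct marker was above both, and the share of all tested genes was 32.7%. All 5 markers listed for plasmacytoid dendritic cells, a main source of interferon, were higher there than in WT livers 1 and 2, and they summed to 86.4, 88.9 and 168 CPM. Bst2, itself induced by interferon, made up 85.2, 87.6 and 166 of these, and the other 4 markers summed to 1.16, 1.30 and 2.57 CPM. In bulk liver RNA, a change in the number of cells of a type and a change in RNA per cell cannot be told apart, and the part of cell composition in the members' values was not tested.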

How the data were processed

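Total RNA from 12 mouse livers, 3 of each genotype, was sequenced on a NovaSeq. The authors aligned the reads with STAR to GRCm39 and counted them per gene with featureCounts, per the labels and methods, and deposited raw read counts for each library. Versions, annotation release, the use of strand and the treatment of multiply mapped reads are not given in the sources used here. The labels and the methods name different RNeasy kits. Groups were taken from the sample labels. Each library is a separate liver, so p-values measure the spread between livers of a group. Y-linked genes were expressed in WT livers 2 and 3, in Mcl1Δhep Sting1-/- liver 1 and in no Mcl1Δhep or Sting1-/- liver. Sex thus differed between compared groups as well as within them, and the main fit does not separate it from genotype.

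Counts were tested in R 4.3.3 with edgeR 4.0.16 (TMM factors, filterByExpr, 1 quasi-likelihood fit over all 12 libraries, no covariates, prior count 2), which left 15070 of 40551 genes, and p-values were adjusted after Benjamini and Hochberg, with calls at an adjusted p under 0.05. The tests are two-sided. DESeq2 1.42.0, other normalization and filters, a fit of only the groups compared, covariates, the replicate number as a block and leaving out each library were alternatives, and the centering by transcript length was added after the data were seen. CPM and TPM were computed from the deposited counts, TPM with exon lengths of GENCODE vM39, from which the GRCm39 positions also come. Promoters come from RefSeq on GRCm38.p6, and no coordinates were converted. Close paralogs can share reads: 31.8% of the 100-base windows of Oas1g also occur in Oas1a, and 27.2% of those of Ifit3b in Ifit3. Members that share exonic bases with another gene, such as Tor3a, Herc6 and Dtx3l, carry the same doubt.

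The members and all lists were chosen with earlier results of these data known. The genes named by rule were the called members and Irf7, Isg15, Usp18, Ifit1, Rsad2 and Stat2, each with every library, the pathway lists by counts and fold changes, Mcl1 and Sting1, and the 10 genes with the largest excess in WT replicate 3. Other members given by library (Oas1a, Helz2, Eif2ak2, Ifi35 and Lgals3bp) were chosen after their values were seen. The comparisons share livers with each other, so they are not independent.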

Additional observations from a re-analysis of the deposited data

How the results depend on the processing

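Of the 5 members called between Mcl1Δhep and WT livers, edgeR called 3 without the filter on low counts, 0 when only the compared groups were fitted, 2 with Y-linked expression as a covariate, 0 with the share of small structured RNA as a covariate and 3 after centering by transcript length, while DESeq2 called 7. Leaving out 1 library gave 0 to 11 called members, with a median log2 fold change of −0.35 to 0.23, and the median was 0.23 without WT replicate 3. For Mcl1Δhep Sting1-/- against Mcl1Δhep livers, leaving out 1 library gave 0 to 6 called members. The interaction gave 0 to 3, with a median of −0.25 to 0.44. In the fits with fewer samples the residual degrees of freedom are fewer, and the cause of the other changes was not tested. No called member changed sign under any alternative. Beyond the main fit and DESeq2, calls over all genes are given only without WT replicate 3 and without Mcl1Δhep replicate 1. For the other alternatives the counts of called members have no background beside them.

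The replicate numbers were checked as a pairing. The 18 pairs of libraries with the same number had correlated deviations of −0.541 to 0.251 (median −0.0191), and 3 of them were over 0.1. The 36 pairs with other numbers had −0.239 to 0.441 (median 0.00563), and 7 were over 0.1. Whether livers with the same number shared a litter or a day cannot be read from these values. With the replicate number as a block, 4 members were called between Mcl1Δhep and WT livers, and none in the other comparisons. Low counts limit the members least expressed, and with 3 livers a group, small changes can be missed.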
